A study of Homo sapiens and Mus musculus with 28 samples.

Results

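Cells given iR4 and cells lacking the gene REXO4 were compared by how much each departed from its own control. The measure is the difference of effects: the log2 fold change of iR4 over Vehicle, minus the log2 fold change of the knockout R4KO_2 over Ctrl. It was fitted for each Ensembl gene ID over 12 of the 28 libraries of the series. All 12 came from SCC1, an established human squamous carcinoma cell line of the head and neck, and held polyadenylated RNA in 4 groups of 3 libraries. They were SCC1 cells with iR4, SCC1 cells with Vehicle, the REXO4 knockout R4KO_2 with Vehicle, and control (Ctrl) cells with Vehicle. The labels do not spell out iR4, its dose or its time, and do not name the vehicle. They do not say whether R4KO_2 is a single clone, nor whether replicates are separate cultures, so p-values measure only the spread between these libraries, which may be technical. iR4 and R4KO_2 have a control group each, and the kind of perturbation and the set of libraries cannot be told apart.

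REXO4 is a nuclear RNA exonuclease of the DEDDh family, which trims RNA from the 3′ end. The series concerns its action on R-loops, structures in which RNA pairs with one DNA strand and displaces the other. Nucleic acids that reach the cytosol are bound by sensors such as CGAS, which signals through STING and the kinase TBK1 to interferon and interferon-stimulated genes. A separate route, the integrated stress response, slows general translation while the transcription factor ATF4 is made, and ATF4 switches on amino acid synthesis, amino acid transport and stress factors. Growth factor signals through the MAP kinases induce immediate early transcription factors within a short time, together with the phosphatases (DUSP) and Sprouty proteins (SPRY) that dampen the pathway.

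Total counts ran from 17.53 to 21.65 M per library, and 14177 of 35135 gene IDs passed the filter on low counts. The first principal component (57.4% of the variance) placed the iR4 and R4KO_2 libraries on one side and both control groups on the other. The second (26%) separated the iR4 and Vehicle libraries from the R4KO_2 and Ctrl libraries. All 9 squamous markers were detected in every group, with a summed level of 3197 to 3284 CPM with iR4, 2852 to 2965 with Vehicle, 3965 to 4023 in R4KO_2 and 3949 to 4180 in Ctrl (CPM of total counts). Leukocyte markers summed to less than 0.69 CPM in every library and endothelial markers to at most 2.27 CPM. Fibroblast markers summed to 35.5 to 41.6, 21.2 to 24.02, 42.4 to 46.0 and 22.7 to 23.4 CPM in the same order of groups, most of it COL1A1, with PDGFRA at 0 counts throughout.

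The transcript of the targeted gene fell in both settings, and far more in the knockout. REXO4 (ENSG00000148300, minus strand of chromosome 9, 133406059 to 133418096 in GRCh38) stood at 63.1, 58.4 and 63.4 CPM with iR4, against 92.6, 99.1 and 98.5 CPM with Vehicle. CPM is the count relative to the library total after TMM scaling, here and in all gene levels that follow. In R4KO_2 it stood at 6.97, 7.04 and 4.98 CPM, against 74.6, 77.2 and 71.5 CPM in Ctrl. Neither pair of groups overlapped, and some transcript remained in the knockout. The iR4 effect was -0.65 and the R4KO_2 effect -3.55 on the log2 scale, a difference of effects of 2.91 ± 0.10 (standard error, as in all later differences; edgeR adjusted p = 6.41e-20), the lowest p of all genes. Of 24 tested DEDDh exonucleases and RNA exosome subunits and cofactors, 3 had a higher difference of effects, REXO4 itself among them, and 2 a lower one (12.5% and 8.33%), near the 11.8% and 9.67% of all genes tested. The others were EXOSC1 (0.25) and EXOSC6 (0.29), higher, and DIS3L (-0.40) and MTREX (-0.18), lower. ADAMTS13 and STKLD1 overlap the ends of REXO4 on the other strand, and no source used here gives the strand setting of the counting.

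Across the transcriptome the iR4 and R4KO_2 effects ran broadly alike. Their Pearson correlation over the 14177 genes was 0.837 (Spearman 0.836), and 0.887 over the 11092 genes with an average of at least 2 log2 CPM. These are descriptions across genes, which are not independent replicates. The effects share no library. Their median absolute size was 0.34 for iR4 and 0.32 for R4KO_2. iR4 raised 5082 genes and lowered 4867 (35.8% and 34.3% of genes tested), and R4KO_2 raised 4918 and lowered 4728 (34.7% and 33.3%). Of the 7757 genes that changed the same way in both, 6188 had no called difference of effects. A miss of the threshold does not show that their effects were equal.

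The difference of effects itself was called for 3041 genes (21.5%): 1670 higher (11.8%) and 1371 lower (9.67%). Most of the called differences were small. Their median absolute size was 0.35, and 2142 of the 3041 lay below 0.5. Among the 3041 called genes, 138 were higher and 117 lower by 2-fold or more. A higher difference has several forms. It covered 557 genes that rose more with iR4 than in R4KO_2, 352 that fell less, 396 that rose with iR4 alone, 255 that fell in R4KO_2 alone and 104 that moved in opposite directions. The lower ones were 260 genes that rose less with iR4, 400 that fell further, 298 that fell with iR4 alone, 302 that rose in R4KO_2 alone and 104 that moved in opposite directions. The remaining 13 were called for neither effect.

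**Figure D1:**
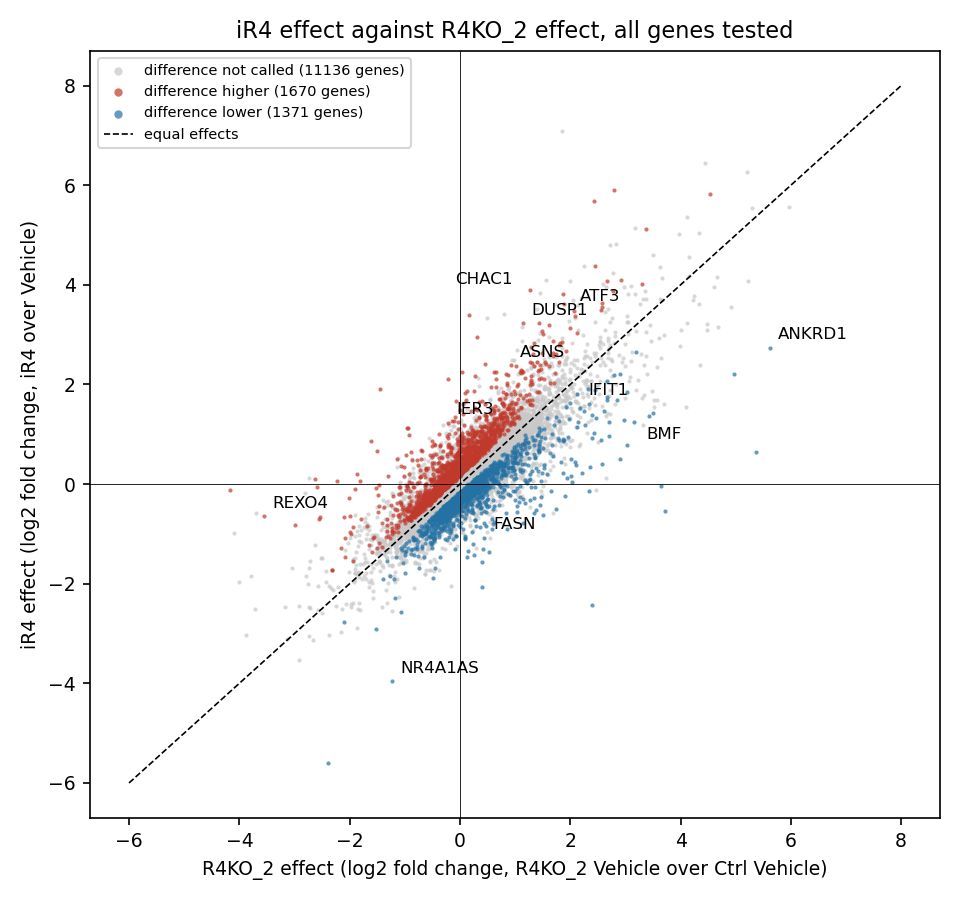
Each point is a gene, with its R4KO_2 effect across and its iR4 effect up (log2 fold changes), for 14177 genes. Red points (1670) lie above the dashed line of equal effects and blue points (1371) below it, among 11136 grey points whose difference was not called. REXO4 sits far to the left and above the line, CHAC1 and DUSP1 above it, and ANKRD1 and BMF below it.

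Most genes of the integrated stress response had a higher difference of effects. Of the 33 tested genes in the list of ATF4 targets, 29 had a higher difference of effects and 0 a lower one, against 11.8% and 9.67% of all genes, and the median was 0.80 against 0.01 over all genes. Of these genes, 27 rose and 4 fell with iR4 (median effect 1.32), and 19 rose and 12 fell in R4KO_2 (0.41). Among all genes, 35.8% rose and 34.3% fell with iR4, and 34.7% and 33.3% in R4KO_2. The promoters of CHAC1 and ASNS, the strongest of the list by fold and by p, are shown because ATF4 acts through a C/EBP-ATF response element. Capitals mark its letters, TGATGNAA on either strand, in the 250 bases before and 50 after the start of the gene (RefSeq, GRCh38.p14; CHAC1 plus strand, chr15:40953221-40953520; ASNS minus strand, chr7:97872359-97872658).
CHAC1: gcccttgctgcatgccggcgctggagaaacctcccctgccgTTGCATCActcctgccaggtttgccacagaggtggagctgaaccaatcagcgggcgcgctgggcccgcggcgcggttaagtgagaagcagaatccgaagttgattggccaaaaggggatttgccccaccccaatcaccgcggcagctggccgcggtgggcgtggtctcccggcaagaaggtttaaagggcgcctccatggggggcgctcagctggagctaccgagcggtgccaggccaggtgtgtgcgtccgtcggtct
ASNS: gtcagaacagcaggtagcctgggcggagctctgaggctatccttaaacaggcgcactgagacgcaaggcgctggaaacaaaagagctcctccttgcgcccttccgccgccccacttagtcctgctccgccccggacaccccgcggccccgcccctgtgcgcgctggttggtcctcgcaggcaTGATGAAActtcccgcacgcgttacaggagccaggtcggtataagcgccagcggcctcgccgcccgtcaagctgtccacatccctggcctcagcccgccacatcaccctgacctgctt
The match begins 209 bases before the start in CHAC1, where it reads on the reverse strand, and 68 bases before it in ASNS. Such a match stood in 5 of the 28 ATF4-list promoters held (17.9%) and in 1.76% of the 11076 promoters of genes tested. Its share was larger in the aminoacyl-tRNA synthetase list, 6 of 16 promoters (37.5%), where the median difference of effects was only 0.12. The match is a description of the letters, not of binding.

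CHAC1, which degrades glutathione, showed the largest higher difference after REXO4 among the genes named by rule. Its level was 125, 118 and 147 CPM with iR4, against 8.69, 8.62 and 8.81 CPM with Vehicle, and 35.3, 47.02 and 39.1 CPM in R4KO_2, against 19.2, 18.4 and 12.5 CPM in Ctrl. The change was 14.9-fold with iR4 and 2.42-fold in R4KO_2, with no overlap in either pair (difference 2.62 ± 0.16, adjusted p = 2.28e-13). CHAC1 lies on chromosome 15, whose genes as a whole had a lower difference of effects, with a median of -0.18. ASNS, asparagine synthetase, stood at 445, 419 and 466 CPM with iR4, against 77.7, 84.6 and 91.5 CPM with Vehicle, and at 222, 253 and 208 CPM in R4KO_2, against 125, 118 and 115 CPM in Ctrl. It rose 5.24-fold with iR4 and 1.90-fold in R4KO_2 (difference 1.46 ± 0.08, adjusted p = 1.81e-14). STC2, a secreted glycoprotein, rose with iR4 to 289 ± 26.6 CPM (mean ± SD, n = 3), against 94.6 ± 2.96 with Vehicle. In R4KO_2 it was at 138 ± 18.9, against 133 ± 5.11 in Ctrl, an effect of 0.06 that did not pass the test (difference 1.56 ± 0.09, adjusted p = 4.44e-14).

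ATF3, a stress-induced transcription factor that the list of immediate early genes also holds, stood at 325, 328 and 435 CPM with iR4 and 25.5, 26.7 and 25.3 CPM with Vehicle. In R4KO_2 it was at 149, 185 and 153 CPM, and in Ctrl at 40.5, 43.3 and 49.00 CPM. Both effects were rises without overlap, and iR4 gave the larger (difference 1.94 ± 0.13, adjusted p = 1.71e-12). ATF4 mRNA itself rose with iR4 (0.38) and fell in R4KO_2 (-0.24), a difference of 0.63. Some members had rises of a like size: CBS was at 1.16 with iR4 and 1.15 in R4KO_2, and KLHL24 at 2.33 and 2.13, with no called difference. The secreted stress hormones rose strongly in both settings. GDF15 reached 157 CPM with iR4, against 2.79 with Vehicle, and 130.3 in R4KO_2, against 5.65 in Ctrl. Of the 4 tested, GDF15 (1.29), ADM2 (1.46) and INHBE (1.74) had a higher difference, and FGF21 stood at 0.73 without a call.

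Set directly against R4KO_2 cells, 30 of the 33 ATF4-list genes were higher with iR4 and 0 lower, where 31.4% and 30.2% of all genes were. Between the control groups, 11 of the 33 were higher with Vehicle than in Ctrl and 12 lower, where 26.3% and 26.9% of all genes were. The genes detailed above were among the lower ones: CHAC1 (-0.94), ASNS (-0.50), STC2 (-0.49) and ATF3 (-0.78). Neighbouring stress groups had smaller medians. Heat shock chaperones had 14 higher and 0 lower differences of 24 (median 0.26), against 11.8% and 9.67% of all genes. ER chaperones and unfolded protein response genes had 9 and 0 of 20 (0.19). Aminoacyl-tRNA synthetases, which charge tRNA and include ATF4 targets, had 9 and 2 of 20 (0.12). Of the ER genes, 6 rose and 11 fell with iR4, and 4 rose and 13 fell in R4KO_2. Of the synthetases, 5 rose and 10 fell with iR4, and 3 rose and 16 fell in R4KO_2. Of all genes, 35.8% rose and 34.3% fell with iR4, and 34.7% and 33.3% in R4KO_2. Vehicle lay below Ctrl for 16 ER genes and above it for 1. In the end state iR4 cells lay above R4KO_2 cells for 6 ER genes and 15 synthetases, and below them for 9 and 1. HSPA1A, an inducible chaperone, averaged 2482 ± 566 CPM with iR4 and 349 ± 39.3 with Vehicle. In R4KO_2 it averaged 1012 ± 139.6 CPM, and in Ctrl 288 ± 19.96. Its difference was 1.02 ± 0.14 (adjusted p = 1.40e-06), and that of HSPA1B, a near-identical copy whose reads cannot be split with confidence from it, was 1.003. HSPA5, the main chaperone of the ER, rose with iR4 (0.14) and fell in R4KO_2 (-0.64).

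Immediate early and MAP kinase feedback genes also had many higher differences. Of 28 immediate early genes, 21 had a higher and 1 a lower difference (75.0% and 3.57%, median 0.70). Of 18 MAPK feedback genes, 14 had a higher and 0 a lower one (77.8% and 0%, median 1.02). Over all genes tested the shares were 11.8% and 9.67%. DUSP1, a phosphatase that switches MAP kinases off, stood at 306, 280.5 and 386 CPM with iR4, against 36.7, 36.5 and 30.8 CPM with Vehicle, and 169.7, 190.3 and 164 CPM in R4KO_2, against 80.7, 77.5 and 80.3 CPM in Ctrl. The groups of each pair were apart, and the rise was 9.37-fold with iR4 and 2.198-fold in R4KO_2 (difference 2.09 ± 0.11, adjusted p = 8.95e-15). Its promoter is shown for the cyclic AMP response element TGACGTCA (capitals), 125 bases before the start (RefSeq, GRCh38.p14, minus strand, chr5:172771146-172771445).
DUSP1: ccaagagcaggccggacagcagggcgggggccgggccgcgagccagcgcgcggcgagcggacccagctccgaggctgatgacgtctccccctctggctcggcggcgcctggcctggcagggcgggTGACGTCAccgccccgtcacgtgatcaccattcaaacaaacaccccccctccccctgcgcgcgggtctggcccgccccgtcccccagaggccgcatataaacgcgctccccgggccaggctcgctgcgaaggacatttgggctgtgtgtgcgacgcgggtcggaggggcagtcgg
This element stood in 2 of 14 MAPK feedback promoters and 2 of 21 immediate early promoters, and in 3.22% of promoters of genes tested. The CArG box, which serum response factor binds, stood in 2 of the 21 immediate early promoters (9.52%), against 1.05% of promoters of genes tested.

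PHLDA1, a MAP kinase and stress-responsive gene, was at 98.7, 87.2 and 110.1 CPM with iR4, against 18.7, 18.6 and 18.3 CPM with Vehicle, and at 76.2, 86.8 and 74.2 CPM in R4KO_2, against 58.9, 56.8 and 56.9 CPM in Ctrl (difference 1.96 ± 0.10, adjusted p = 2.50e-15). iR4 and R4KO_2 cells were both high, and the Vehicle libraries were the lowest of the 4 groups. Among the phosphatases and Sprouty genes, DUSP4 and DUSP5 (1.58 each), SPRY4 (1.423), DUSP6 (1.36) and SPRY1 (1.17) had higher differences, while DUSP7 (-0.03) and DUSP8 (0.33) had no call. JUN, a subunit of AP-1, rose with iR4 by 2.26 and in R4KO_2 by 0.66. EGR1, a zinc finger factor, went the other way within the list: it fell with iR4 (-1.33) and less in R4KO_2 (-0.90) (difference -0.43, adjusted p = 0.0257), the only lower call of the 28. DESeq2 called 0 of the 28 lower, and EGR2, at -0.53, had no call. CCN1 and CCN2, matricellular genes that are also YAP-TEAD targets, had differences of 0.92 and 1.03. Of 20 YAP-TEAD targets, 11 were higher and 3 lower, against 11.8% and 9.67% of all genes (median 0.27). The largest difference of that list in size was a lower one, ANKRD1 at -2.88, on 16 counts in Ctrl.

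In these lists the control groups were already apart. Vehicle lay below Ctrl for 21 of 28 immediate early genes and above it for 2. It lay below Ctrl for 10 of 18 MAPK feedback genes and above it for 4. The shares of all genes were 26.9% below and 26.3% above. In the end state, iR4 cells lay above R4KO_2 cells for 15 and below them for 11 of the 28. They lay above them for 15 and below them for 1 of the 18. The end-state shares of all genes were 31.4% above and 30.2% below. For PHLDA1 the Vehicle to Ctrl contrast was -1.63 and the iR4 to R4KO_2 contrast 0.32, while for DUSP1 they were -1.20 and 0.89. The difference of effects is the second minus the first.

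**Figure D2:**
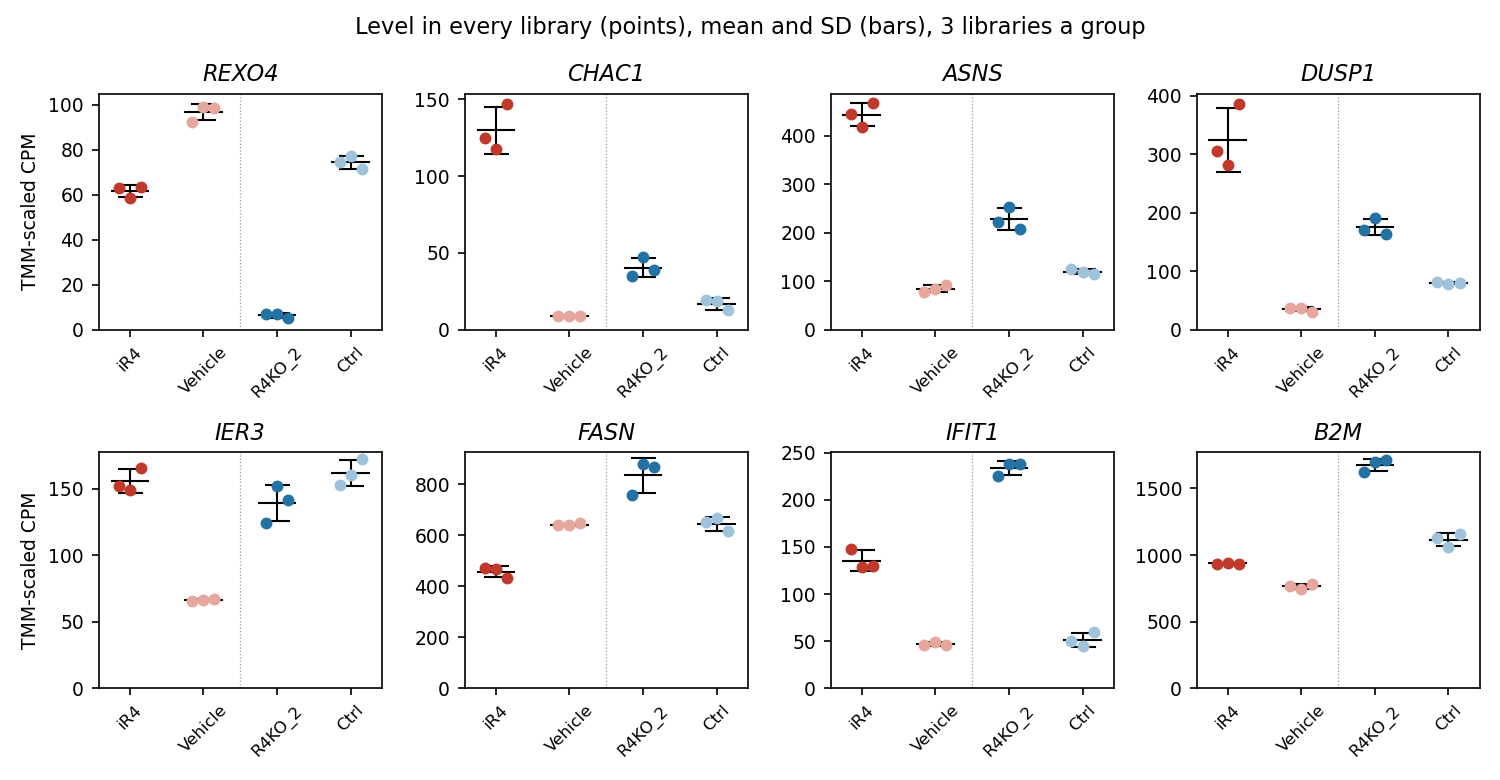
Level of 8 genes in each of the 12 libraries (points, TMM-scaled CPM on linear axes from 0), with mean and SD of 3 libraries as bars. The first pair of groups in each panel is iR4 and Vehicle, the second R4KO_2 and Ctrl. CHAC1, ASNS and DUSP1 stand highest with iR4, IFIT1 and B2M in R4KO_2, and REXO4 is lowest in R4KO_2.

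Some genes of secreted growth factors and cytokines also had higher differences. AREG, a ligand of the EGF receptor, stood at 103, 93.9 and 119 CPM with iR4, against 25.2, 22.8 and 22.1 CPM with Vehicle. In R4KO_2 it was at 70.2, 75.9 and 64.3 CPM, against 57.6, 58.6 and 57.98 CPM in Ctrl (difference 1.90 ± 0.10, adjusted p = 5.24e-15). PGF, a relative of VEGFA, rose with iR4 to 14.8 ± 1.95 CPM, against 3.12 ± 0.432 with Vehicle, and was at 7.32 ± 0.96 in R4KO_2, against 7.17 ± 0.282 in Ctrl, an effect of 0.03 that did not pass (difference 2.22 ± 0.18, adjusted p = 9.37e-11). Of 15 chemokines and cytokines tested, 13 rose with iR4 and 14 in R4KO_2, and 0 fell in either. Among all genes, 35.8% rose with iR4 and 34.7% in R4KO_2. The difference was higher for 6 and lower for 2 (40.0% and 13.3%, against 11.8% and 9.67% of all genes), with a median of 0.06. Vehicle lay below Ctrl for 8 of the 15 and above it for 0, against 26.9% and 26.3% of all genes. In the end state iR4 cells lay above R4KO_2 cells for 4 and below them for 10, against 31.4% and 30.2% of all genes. IL1A, an alarm cytokine of epithelium, was at 142, 130.2 and 167 CPM with iR4 and 22.4, 18.9 and 20.3 CPM with Vehicle. It was at 192, 224 and 176 CPM in R4KO_2 and 85.8, 74.3 and 73.2 CPM in Ctrl (difference 1.497 ± 0.12, adjusted p = 6.74e-11). Its highest levels were in R4KO_2, while its largest change was with iR4, and Vehicle lay well below Ctrl. IL11 (1.13), IL6 (1.18) and IL1B (0.998) also had higher differences. The lower ones were IL32 (-0.69) and the chemokine CCL20 (-2.76). The counts of CCL20 were 47 counts with iR4, 9 with Vehicle, 116 in R4KO_2 and 3 in Ctrl.

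Most interferon-stimulated genes rose in both settings, and where their difference of effects was called it was mostly lower. Of 53 tested, 45 rose and 4 fell with iR4 (median effect 0.83), and 46 rose and 1 fell in R4KO_2 (1.12). Among all genes, 35.8% rose and 34.3% fell with iR4, and 34.7% and 33.3% in R4KO_2. The difference of effects was higher for 2 and lower for 19 (35.8%, against 9.67% of all genes), with a median of -0.25, and was not called for 32; DESeq2 called 2 higher and 15 lower. The promoter of IFIT1 is shown for the core of the interferon-stimulated response element, searched on either strand as GAAA, any 2 bases and GAAA again. The promoter of B2M follows for the same core, in capitals, which reads on the reverse strand in IFIT1 (RefSeq, GRCh38.p14; IFIT1 plus strand, chr10:89392373-89392672; B2M plus strand, chr15:44711267-44711566).
IFIT1: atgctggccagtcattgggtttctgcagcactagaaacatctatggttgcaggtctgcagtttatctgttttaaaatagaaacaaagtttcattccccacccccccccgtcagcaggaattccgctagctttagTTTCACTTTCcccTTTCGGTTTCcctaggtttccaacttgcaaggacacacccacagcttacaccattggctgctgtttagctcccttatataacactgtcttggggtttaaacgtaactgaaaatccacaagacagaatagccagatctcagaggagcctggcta
B2M: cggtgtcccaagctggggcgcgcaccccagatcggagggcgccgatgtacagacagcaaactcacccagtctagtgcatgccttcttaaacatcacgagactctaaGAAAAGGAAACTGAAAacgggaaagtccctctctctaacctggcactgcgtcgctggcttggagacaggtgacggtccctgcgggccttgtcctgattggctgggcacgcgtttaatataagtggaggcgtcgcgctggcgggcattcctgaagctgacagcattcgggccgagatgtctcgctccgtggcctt
The matches begin 116 and 103 bases before the start in IFIT1 and 144 and 138 bases before it in B2M, where the second overlaps the first. The core stood in 27 of 42 interferon-stimulated promoters (64.3%) and 9 of 17 MHC class I promoters (52.9%), and in 2.75% of promoters of genes tested.

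IFIT1, which binds foreign RNA, stood at 148, 129 and 130.00 CPM with iR4, against 45.6, 49.4 and 45.99 CPM with Vehicle, and 225, 238 and 238 CPM in R4KO_2, against 50.1, 44.9 and 59.4 CPM in Ctrl. The controls were at a like level, the rise was 2.89-fold with iR4 and 4.54-fold in R4KO_2, and no groups of a pair overlapped (difference -0.65 ± 0.09, adjusted p = 2.49e-06). LIPA overlaps IFIT1 on the other strand. OASL, a relative of the 2′-5′ oligoadenylate synthetases, averaged 155 ± 12.6 CPM with iR4 and 33.99 ± 0.655 with Vehicle. It averaged 252 ± 25.2 CPM in R4KO_2 and 36.2 ± 2.84 in Ctrl (difference -0.62 ± 0.10, adjusted p = 1.37e-05). The lower members ran from CMPK2 (-2.06, on 16 counts with Vehicle and 6 in Ctrl) and TRIM22 (-1.73) through IFI27 (-0.92) and IFI44L (-0.74) to PARP9 (-0.23) and ISG15 (-0.25). TRIM25 (0.23) and LAMP3 (0.45) were the 2 higher ones, and 32 members had no call, among them RIGI (-0.27) and IRF7 (-0.11). Vehicle also lay below Ctrl for 40 of the 53 genes, against 26.9% of all genes. In the end state iR4 cells were below R4KO_2 cells for 45 of the 53, against 30.2% of all genes.

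In antigen presentation the called differences were lower ones. Of 21 MHC class I presentation genes, 0 had a higher and 7 a lower difference (median -0.10). B2M, the common light chain of MHC class I, stood at 934, 943 and 935 CPM with iR4, against 764, 748 and 779 CPM with Vehicle, and 1627, 1699 and 1711 CPM in R4KO_2, against 1126, 1060.4 and 1161 CPM in Ctrl (difference -0.29 ± 0.05, adjusted p = 5.77e-05). Both rises were without overlap, and every iR4 library lay below every Ctrl library. B2M lies on chromosome 15, where the median difference was -0.18, and what part of its value goes with that was not tested. HLA-E (-0.29), HLA-F (-0.37), HLA-B (-0.23) and HLA-C (-0.18) were lower off that chromosome, though reads of HLA genes can be shared among them, and TAP1 (-0.07) and NLRC5 (-0.03) had no call. Upstream of interferon the sensing components had 4 higher and 2 lower differences of 23 (17.4% and 8.70%), near the 11.8% and 9.67% of all genes. CGAS, the DNA sensor, rose more with iR4 (0.97) than in R4KO_2 (0.47; difference 0.497 ± 0.09, adjusted p = 0.000117), and STING1 (0.27) and IFI16 (0.29) were higher too. SAMHD1, which removes nucleotides and restrains sensing, rose in R4KO_2 (0.45) and was at 0.07 with iR4, which did not pass (difference -0.38 ± 0.07, adjusted p = 8.67e-05).

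Among lipid synthesis genes, lower differences outnumbered higher ones. Of 25 cholesterol synthesis genes, 20 rose with iR4 and 22 in R4KO_2. The difference was higher for 4 and lower for 11 (median -0.29), with 10 not called. These were 16.0% and 44.0%, against 11.8% and 9.67% of all genes. FDPS, which makes farnesyl diphosphate, stood at 162, 156 and 149 CPM with iR4 and 141, 154 and 145 CPM with Vehicle, groups that overlapped. It stood at 291, 321 and 328 CPM in R4KO_2 and 203, 209 and 214 CPM in Ctrl, which did not overlap (difference -0.499 ± 0.06, adjusted p = 6.74e-07). EBP, a sterol isomerase, had a difference of -0.41 ± 0.05, and LSS (-0.48) and HMGCS1 (-0.47) were also lower. Among the higher genes were INSIG1 (0.52), a feedback gene, STARD4 (0.42), a sterol carrier, and the regulator SREBF2 (0.19). Of 14 fatty acid synthesis genes, 0 were higher and 6 lower. With iR4 7 of them fell and 5 rose, and in R4KO_2 4 fell and 7 rose. The shares of all genes were 34.3% falling and 35.8% rising with iR4, and 33.3% and 34.7% in R4KO_2. Vehicle lay below Ctrl for 24 of the 25 cholesterol genes and above it for 0, against 26.9% and 26.3% of all genes.

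**Figure D3:**
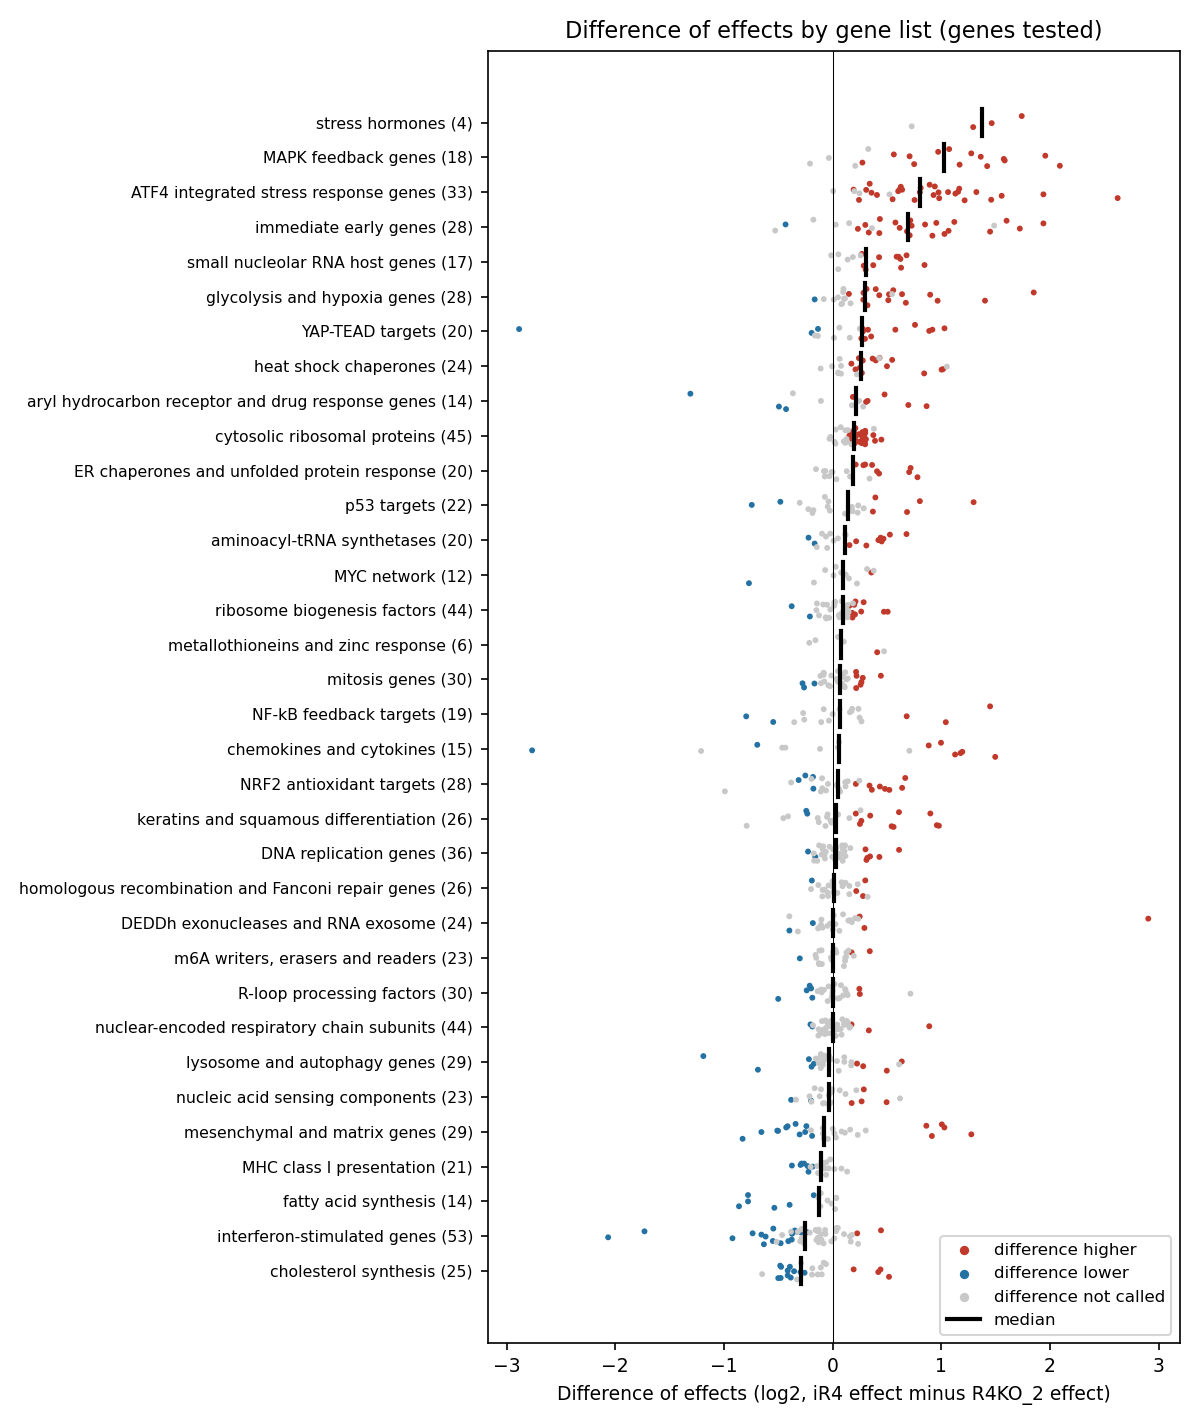
Difference of effects (log2, iR4 effect minus R4KO_2 effect) of every tested gene in each list, with the number tested in brackets and the median as a black bar. Red points had a higher and blue points a lower difference, and grey points had no call. Stress hormones, MAPK feedback, ATF4 and immediate early genes have medians to the right of 0, and interferon-stimulated and cholesterol synthesis genes to the left.

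Ribosomal genes fell in both settings. All 45 tested cytosolic ribosomal protein genes fell in R4KO_2 (median -0.63) and 44 fell with iR4 (-0.42), where 33.3% and 34.3% of all genes did. The difference was higher for 31 and lower for 0 (68.9% and 0%, against 11.8% and 9.67% of all genes), with a median of 0.20. RPL23, a large subunit protein, stood at 285, 293 and 276 CPM with iR4, against 547, 563 and 534 CPM with Vehicle, and 269.8, 269 and 285 CPM in R4KO_2, against 662, 705 and 690.4 CPM in Ctrl (difference 0.38 ± 0.05, adjusted p = 3.88e-06). The 2 lowered groups reached nearly the same level, from controls that differed. RPL13 averaged 995 ± 34.3 CPM with iR4, 1293 ± 37.9 with Vehicle, 677 ± 9.22 in R4KO_2 and 1080.1 ± 48.7 in Ctrl (difference 0.30 ± 0.05). Both genes have processed pseudogenes that can share reads, and small nucleolar RNA genes lie within RPL23. Host genes of small nucleolar RNAs had 11 higher and 0 lower of 17 (median 0.31), and ribosome biogenesis factors 10 and 2 of 44 (0.10), among them RRP12 (0.51) and BYSL (0.47), both needed for making the small subunit.

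Glycolysis and hypoxia genes had 16 higher and 1 lower difference of 28 (57.1% and 3.57%, against 11.8% and 9.67% of all genes; median 0.30), with CA9 (1.85) and NDRG1 (1.40) at the top. Of these genes 11 rose and 13 fell with iR4, and 4 rose and 18 fell in R4KO_2. The shares of all genes were 35.8% rising and 34.3% falling with iR4, and 34.7% and 33.3% in R4KO_2. Keratins and squamous differentiation genes had 10 higher and 2 lower of 26, including KRT6A (0.98) and KRT14 (0.90). Mesenchymal and matrix genes had 5 higher and 11 lower of 29, with SNAI2 at 1.28 and FN1 at -0.51. Of the 3 fibroblast markers tested, LUM (-3.67) and COL3A1 (-2.13) were lower. They stood at 0.685 and 0.649 CPM with iR4, 0.71 and 1.01 with Vehicle, 5.698 and 5.79 in R4KO_2, and 0.45 and 2.04 in Ctrl. Neither is in the mesenchymal and matrix list, whose lowest difference was -0.83 (MMP13). Of 30 mitosis genes, 28 fell with iR4 and 28 in R4KO_2, with 7 higher and 3 lower differences, and CDC20 at 0.28 and CENPA at 0.44. NRF2 targets had 8 higher and 4 lower of 28. The cystine transporter SLC7A11 (0.64) and AKR1C1 (0.67) had the lowest p of the list. Its largest difference in size was a negative one, AKR1C3 at -0.99. Counts of higher and lower genes in the other lists follow, to be read beside 11.8% and 9.67% of all genes. They were 6 and 3 of 14 for aryl hydrocarbon receptor and drug response genes (42.9% and 21.4%, CYP1B1 0.87, ALDH1A3 -0.49). For p53 targets they were 5 and 2 of 22 (22.7% and 9.09%). NF-kB feedback targets had 3 and 2 of 19 (15.8% and 10.5%, NFKBIA -0.55), and DNA replication genes 6 and 2 of 36 (16.7% and 5.56%). Homologous recombination genes had 3 and 1 of 26 (11.5% and 3.85%), and lysosome genes 4 and 5 of 29 (13.8% and 17.2%). Respiratory chain subunits had 3 and 2 of 44 (6.82% and 4.5%). The MYC network had 1 and 1 of 12 (8.33% each), and metallothioneins 1 and 0 of 6. The R-loop factors had 2 higher and 5 lower of 30 (6.67% and 16.7%), with AQR, an RNA helicase encoded on chromosome 15, at -0.50. The m6A genes had 2 higher and 1 lower of 23 (8.70% and 4.35%). Genes named here as examples beside the 2 lowest-p members of a list were chosen after their values were seen.

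Opposite movement was rare. Only 104 genes rose with iR4 and fell in R4KO_2 with a called difference (0.734% of genes tested), and 104 fell with iR4 and rose in R4KO_2 (0.734%). The 3 with the lowest p on each side were named. CCNA1, an A-type cyclin, stood at 26.2, 25.5 and 29.4 CPM with iR4, against 12.3, 14.2 and 14.6 CPM with Vehicle, and 9.48, 11.2 and 10.3 CPM in R4KO_2, against 20.4, 19.4 and 18.9 CPM in Ctrl. The iR4 effect was 0.98 and the R4KO_2 effect -0.92, with no overlap in either pair (difference 1.90 ± 0.12, adjusted p = 1.19e-13). IER3, an immediate early survival gene, was at 152, 149 and 166 CPM with iR4, against 65.6, 66.1 and 67.1 CPM with Vehicle. In R4KO_2 it was at 125, 152 and 142 CPM, against 153, 160.1 and 172 CPM in Ctrl (difference 1.45 ± 0.08). The Vehicle libraries alone stood low, and IER3-AS1 overlaps the gene on the other strand. KRT17, a keratin of activated epithelium, rose with iR4 by 0.75 and fell in R4KO_2 by 0.21 (difference 0.96 ± 0.06).

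On the other side FASN, fatty acid synthase, stood at 470.1, 469 and 434 CPM with iR4, against 639, 639 and 647 CPM with Vehicle, and 757, 881 and 869 CPM in R4KO_2, against 651, 669 and 616 CPM in Ctrl. Its control groups were at a like level (-0.01), and the effects of -0.49 with iR4 and 0.37 in R4KO_2 pointed apart (difference -0.86 ± 0.06, adjusted p = 1.32e-11). BTN3A2, a butyrophilin, was at 44.4, 46.5 and 40.7 CPM with iR4, against 56.4, 60.8 and 56.9 CPM with Vehicle, and 115, 117 and 120.2 CPM in R4KO_2, against 88.3, 87.9 and 97.8 CPM in Ctrl (difference -0.77 ± 0.07). It has close paralogs with which reads may be shared. MEGF9, an EGF-like membrane protein, averaged 43.8 CPM with iR4, 65.5 with Vehicle, 56.9 in R4KO_2 and 43.5 in Ctrl (difference -0.97 ± 0.09).

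Of the 8 largest lower differences named by rule, 4 were rises in both settings that were larger in R4KO_2 (ANKRD1, BMF, PSG4 and GPNMB), and the other 4 took other forms. ANKRD1, a YAP-TEAD target, stood at 79.5, 76.3 and 101 CPM with iR4, against 14.2, 11.8 and 12.6 CPM with Vehicle, and 16.4, 18.4 and 12.4 CPM in R4KO_2, against 0.237, 0.349 and 0.355 CPM in Ctrl. Its level was thus higher with iR4 than in R4KO_2, and the difference of -2.88 ± 0.39 (adjusted p = 1.99e-06) rests on Ctrl libraries that hold 16 counts together. BMF, a BH3-only promoter of apoptosis on chromosome 15, was at 32.99, 37.4 and 29.3 CPM with iR4, against 11.99, 14.7 and 15.1 CPM with Vehicle, and 43.7, 30.2 and 38.6 CPM in R4KO_2, against 4.32, 3.31 and 5.02 CPM in Ctrl (difference -1.91 ± 0.19, adjusted p = 6.87e-09). The iR4 and R4KO_2 libraries overlapped, while the Vehicle libraries lay above the Ctrl libraries. NR4A1AS fell further with iR4 (difference -2.72 ± 0.61), to 7 counts over the 3 libraries. NR4A1 lies on its other strand, so reads of the pair may not be told apart. PSG4 (-1.47, of a multigene family) and GPNMB (-1.19) rose less with iR4, VIT (-1.41) fell with iR4 and rose in R4KO_2, TDRKH (-1.19) rose in R4KO_2 and LINC02593 (-1.497) fell with iR4. On the positive side BEST1 had 1.92 ± 0.48. It lost its call without Ctrl replicate 1 (1.45, adjusted p = 0.0834), and FTH1 overlaps it on the other strand. GPNMB lost its call without Vehicle replicate 1 (-1.03, adjusted p = 0.0577).

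The difference of effects equals the contrast of end states (iR4 against R4KO_2 cells) minus the contrast of controls (Vehicle against Ctrl cells), and both were wide. End states differed for 8731 genes (61.6%) and controls for 7540 (53.2%). Among the 3041 genes with a called difference, the end-state gap was the larger one for 1938 and the control gap for 1103. In 1367 both gaps were called, in 1024 the end state alone, in 617 the controls alone and in 33 neither. Genes such as CHAC1 (end state 1.68, controls -0.94) held both, with opposite signs, as did 341 called genes in all.

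The other knockout, R4KO_1, was put in place of R4KO_2 with the same iR4, Vehicle and Ctrl libraries. This gave 2242 higher and 2231 lower genes of 14178 (15.8% and 15.7%). Since 3 of its 4 groups are shared, the values stand side by side only. The ATF4 list had 27 higher and 0 lower of 33 with R4KO_1 (median 0.95), MAPK feedback genes 15 and 1 of 18 (1.32), immediate early genes 20 and 2 of 28 (0.81) and heat shock chaperones 16 and 0 of 24 (0.39). Interferon-stimulated genes had 5 higher and 15 lower of 53 (-0.22), MHC class I genes 2 and 6 of 21 (-0.07) and cholesterol synthesis genes 2 and 15 of 25 (-0.40). Ribosomal proteins had 7 higher and 3 lower of 45 (0.02), where R4KO_2 gave 31 and 0, and respiratory chain subunits 1 and 16 of 44 (-0.17), where R4KO_2 gave 3 and 2. Host genes of small nucleolar RNAs had 5 higher and 2 lower of 17 (0.14), and NRF2 targets 4 and 9 of 28 (-0.10). Among named genes the difference with R4KO_1 was 2.33 for REXO4, 3.42 for CHAC1, 1.996 for DUSP1, -0.53 for IFIT1 and -1.13 for FASN. It was -0.29 for ANKRD1 (adjusted p = 0.698), 0.00 for RPL23 (adjusted p = 0.992) and 0.16 for CDC20 (adjusted p = 0.0634), without a call, and ALDH1A3 turned to 0.34 (adjusted p = 0.00364).

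**Figure D4:**
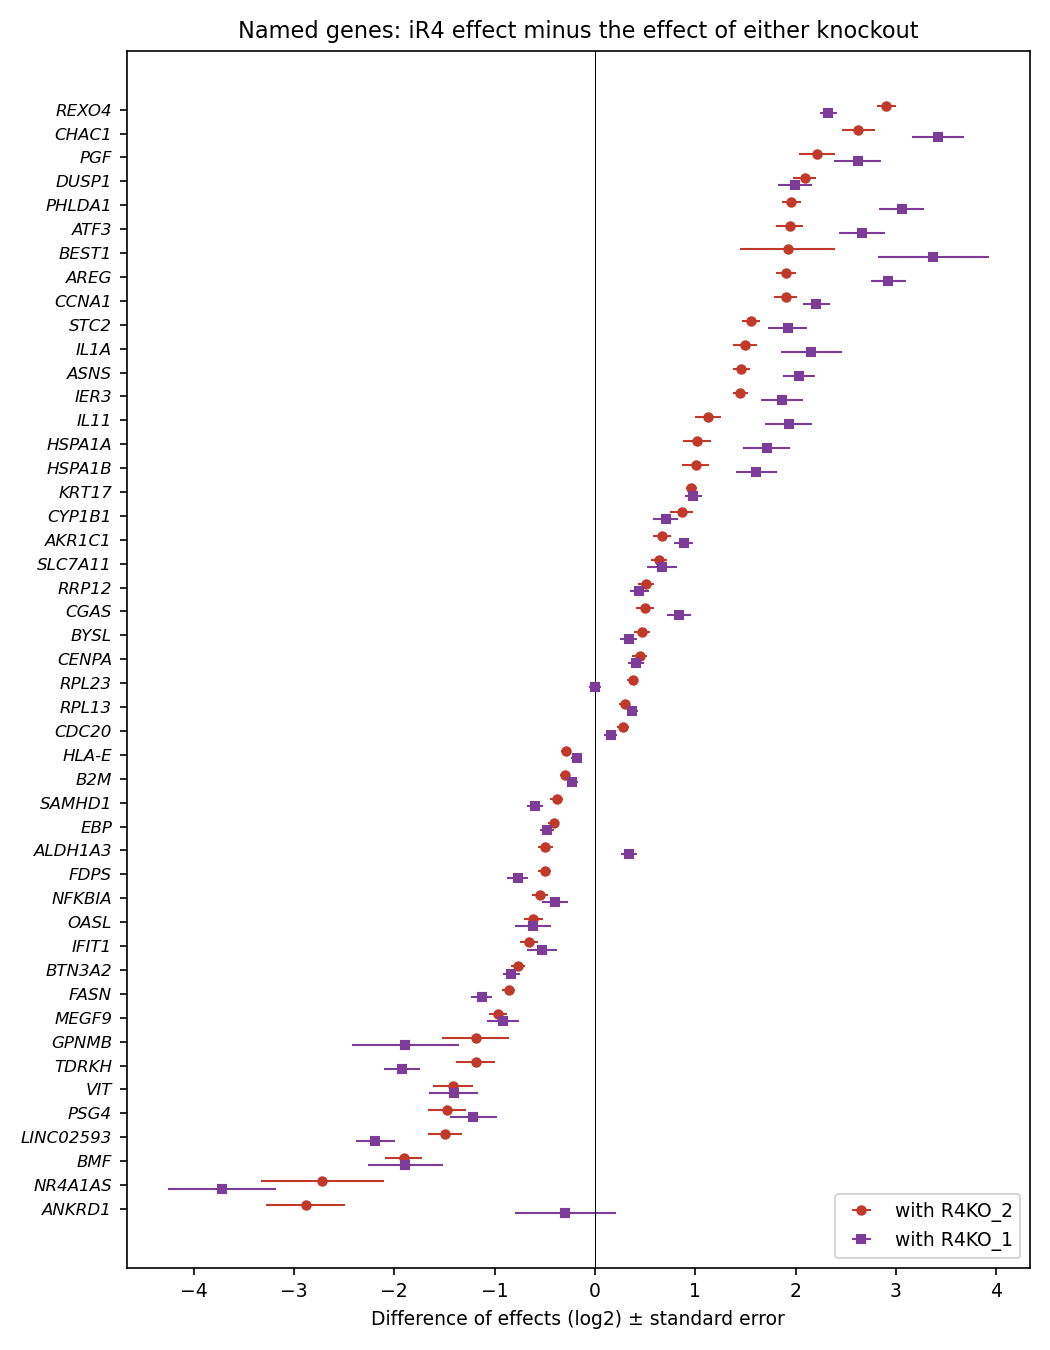
Difference of effects (log2 ± standard error) of the 47 named genes, with R4KO_2 (circles) and with R4KO_1 (squares) as the knockout; both use the same iR4, Vehicle and Ctrl libraries. ALDH1A3 changes side, ANKRD1 and RPL23 reach 0 within 1 standard error with R4KO_1, and CHAC1, PHLDA1 and AREG lie further right with R4KO_1.

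By position, chromosome 15 stood apart in the difference of effects with R4KO_2, a pattern picked after the values were seen. Its 462 tested genes had a median difference of -0.18 against 0.01 over all genes, with 9 higher and 148 lower (32.03%, against 9.67% of all genes). The median effect on chromosome 15 was 0.03 with iR4 and 0.20 in R4KO_2. With R4KO_1 it was 0.22, and Vehicle lay 0.15 above Ctrl, in each case against the same Ctrl libraries. Chromosome 15 did not stand alone in those values. The median difference with R4KO_1 was -0.21 on chromosome 15, -0.22 on chromosome 20 and 0.13 on chromosome 19. Vehicle also lay above Ctrl on chromosomes 20 (0.21), 19 (0.17) and 16 (0.15). All 7 of its windows of 10 Mb with at least 20 genes had a negative median, between -0.24 and -0.12. The 201 windows outside chromosome 15 and the end of chromosome 3 (from 170 Mb) lay between -0.12 and 0.19. Windows at the end of chromosome 3 stood on the other side. From 180 to 190 Mb the median was 0.26 (27 higher and 0 lower of 45 genes), with an R4KO_2 effect of -0.35 and an R4KO_1 effect of -0.19. From 190 to 200 Mb it was 0.28 (25 higher and 1 lower of 36), with effects of -0.27 and -0.07. The cause of these regional shifts, and their part in B2M, BMF, CHAC1, ALDH1A3 and AQR on chromosome 15, was not tested. The difference for CHAC1 runs against that of its chromosome.

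**Figure D5:**
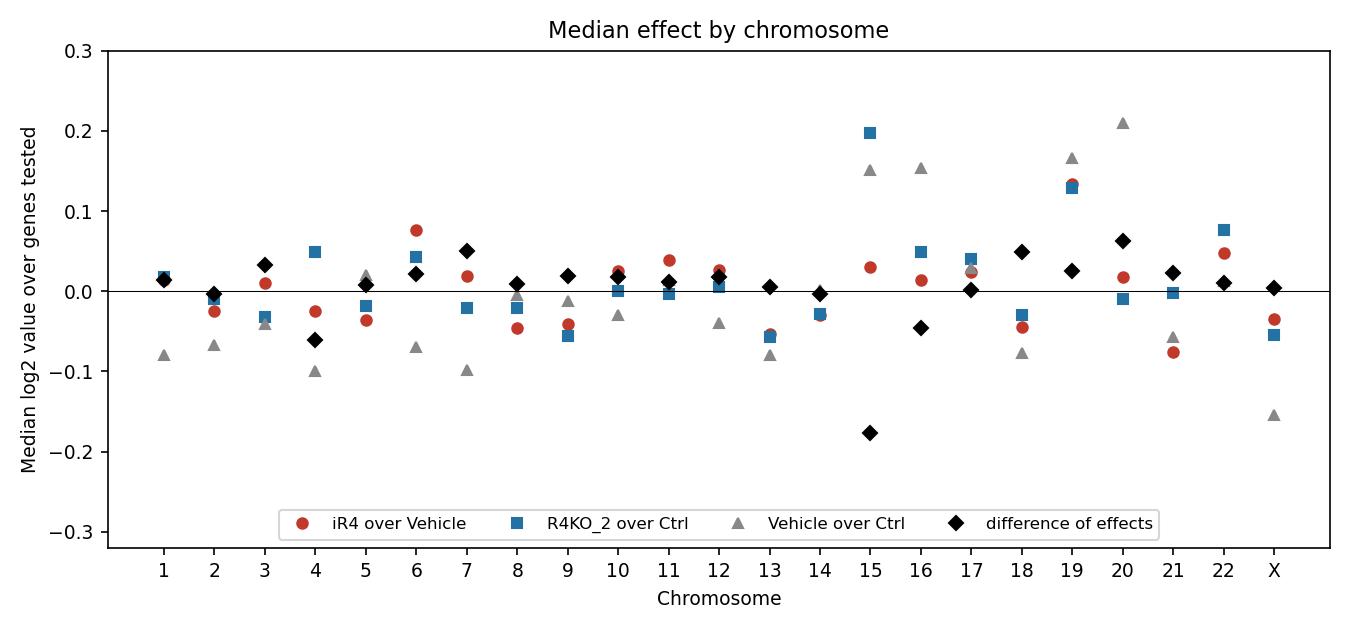
Median log2 value over the genes tested on each chromosome for iR4 over Vehicle (circles), R4KO_2 over Ctrl (squares), Vehicle over Ctrl (triangles) and the difference of effects (diamonds). The diamond of chromosome 15 lies at -0.18, with the R4KO_2 effect at 0.20 and the iR4 effect at 0.03, and every other diamond lies between -0.06 and 0.06.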

How the data were processed

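Polyadenylated RNA of SCC1 cells was sequenced on an Illumina HiSeq instrument, per the labels' protocols. The submitters' processing notes name HISAT2 2.2.1, featureCounts 2.0.1 and DESeq2 1.42.0, along with Trim Galore 0.6.4 and FastQC 0.11.9, and hg38 as the human build. They name neither annotation nor strand setting. The values used are raw counts per Ensembl gene ID as deposited by the authors, 1 library per file. IDs with several symbols repeat a line (2859 lines), and each ID was used once.

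The 12 libraries were fitted together with edgeR 4.0.16 in R 4.3.3: group means, TMM factors, a filterByExpr minimum of 10 counts, quasi-likelihood F tests, Benjamini-Hochberg adjustment over 14177 genes and a threshold of 0.05. Every adjusted p is from edgeR. The biological coefficient of variation was 0.0361, and CPM values are TMM-scaled unless stated. On simulated counts, a difference of effects was set only in genes above a floor on mean CPM. edgeR recovered 51 of 67 such genes (76.1%) at 1.5-fold, 56 of 67 (83.6%) at 2-fold and 65 of 66 (98.5%) at 4-fold. Beside these recovered genes stood 14 false calls, out of 14065 genes tested. No replicates held identical counts.

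Named genes are REXO4, the 8 largest higher and the 8 largest lower called differences whose library-wise effects did not overlap (average log2 CPM 2 or more), the 3 lowest-p genes moving in opposite directions on each side, and the 2 lowest-p members of each main list, 47 in all. The members, lists and rules were chosen with earlier results of these data known. Replicate numbers did not pair the libraries: deviations of same-numbered libraries correlated between -0.0227 and 0.0595. Alternatives were other normalisations, DESeq2, filters, dispersion, more libraries, a replicate block, R4KO_1, a fold minimum and leaving out each library. The mouse libraries and the inhibitor-treated SCC1 libraries other than in the alternative over 24 libraries were not used. Gene positions come from GENCODE v29, which held all 35135 IDs, and promoters from RefSeq (GRCh38.p14), which matched 35 of the 47 named genes. Values of a few list members are not reported here.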

Additional observations from a re-analysis of the deposited data

Results flagged for a closer look

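In the 6 genes named for opposite movement, the effects of iR4 and R4KO_2 pointed apart, and the difference of effects itself passed the test. The number 6 was set by the naming rule. VIT and SLC7A11, named by other rules, also had effects called in opposite directions. IER3 had a difference of 1.45, KRT17 of 0.96 and CCNA1 of 1.9, each higher with iR4 than with Vehicle and lower in R4KO_2 than in Ctrl. FASN had a difference of -0.86, BTN3A2 of -0.77 and MEGF9 of -0.97, each lower with iR4 than with Vehicle and higher in R4KO_2 than in Ctrl. All 6 were named because they moved apart, so their direction is a description. Single outlying libraries were checked by leaving out each library in turn and by no other test, since every group held 3.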

How the results depend on the processing

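Of 1034 values of the 47 named genes under 22 alternatives, 1026 kept their direction and side of the threshold, as did 562 of the 564 values that leave out a library. With R4KO_1 in place of R4KO_2, genes with a lower difference numbered 2231 against 1371, genes called in opposite directions 460 against 208, and ALDH1A3 reversed to 0.34; the cause was not tested. GPNMB also missed the threshold with robust dispersion (adjusted p = 0.0760) and with all 24 SCC1 libraries (0.0951). With a fold minimum of 1.5 in the test, 79 genes had a higher and 22 a lower difference, so that 78.22% of the calls were higher, against 54.92% in the main test. The same minimum left 1583 higher and 791 lower genes for iR4 and 1365 and 777 for R4KO_2. Leaving out a library gave 1419 to 1665 higher and 1136 to 1333 lower differences, and DESeq2 gave 1362 and 1120. With a replicate block the counts were 1680 and 1393, and with a block within each set of libraries 1744 and 1428, so that no count moved by more than 1.5 times. The median difference of all genes was 0.0063 to 0.0076 log2 with RLE, upper-quartile or DESeq2 scaling, against 0.0073 with TMM. Differences near the median standard error of 0.09 were not detectable at this depth and number of libraries.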

Other observations

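Among the annotated gene classes with over 50 genes tested, chosen after their values were seen, the noncoding ones had shares of higher differences of effects between 6.47% and 14.6%, against 11.8% of all genes, and shares of lower ones between 0.535% and 4.15%, against 9.67%. Antisense genes had 26 higher and 6 lower of 402 (6.47% and 1.49%, median 0.12 log2), and lincRNA genes 32 and 12 of 289 (11.1% and 4.15%, median 0.11). Processed transcripts had 15 and 2 of 103 (14.6% and 1.94%, median 0.12). Processed pseudogenes had 17 and 1 of 187 (9.09% and 0.535%, median 0.17), and transcribed processed pseudogenes 7 and 2 of 52 (13.5% and 3.85%, median 0.21). The 12944 protein-coding genes had 1562 higher and 1339 lower differences (12.1% and 10.3%), with a median of 0.0012. The levels of the classes were not compared, and what part of their shares goes with low counts was not tested. In smaller classes, 2 of 21 miRNA genes and 2 of 32 snoRNA genes had a lower difference and 0 a higher one by edgeR's quasi-likelihood test with Benjamini-Hochberg adjustment. Pseudogenes share sequence with their parent genes and antisense genes overlap genes on the other strand; what part of these values comes from those genes was not tested.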
